A study of Caenorhabditis elegans with 8 samples.

Results

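The F-box A family of the nematode Caenorhabditis elegans is the set of genes with symbols that start with fbxa-, and every gene of the deposited count table with such a symbol was taken as a member, whatever its level. This gave 170 of 46093 gene identifiers. They carry 169 symbols, since fbxa-41 names 2 identifiers, and all 170 are annotated as protein-coding. Their longest annotated transcripts have a median length of 1051.5 bases (273 to 5662), and 69 members lie on the plus strand.

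F-box proteins are the interchangeable subunits of SCF ubiquitin ligases. The F-box motif binds a Skp1-related protein, this adaptor binds the cullin CUL-1, and the rest of the F-box protein holds the substrate that is to be ubiquitinated. Most fbxa genes encode an F-box followed by the FTH domain, named after the germline protein FOG-2, which acts with the RNA-binding protein GLD-1 in sperm production of the hermaphrodite. The family is far larger in nematodes than in most other animals. FBXA-75 and FBXA-158 are known as partners of CUL-6, SKR-3, SKR-4, SKR-5 and RCS-1 in a ligase of the intracellular pathogen response, the transcriptional program against microsporidia and virus.

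Poly(A) RNA of whole worms was sequenced from 4 libraries of N2, the wild-type laboratory strain, and 4 libraries of a strain labelled atf-6. ATF-6 is a membrane-bound transcription factor of the endoplasmic reticulum stress response, and the labels give neither an allele nor a strain name for it. Both groups were day 1 adults kept at 20 °C for 72 h on OP50-1 bacteria from synchronized first-stage larvae, with about 1000 worms in each replicate, and the labels call the replicates independent. Other genetic differences between the strains and the atf-6 genotype cannot be told apart in this design. Levels are averages over all tissues, in which fewer cells of a type and less RNA per cell cannot be told apart either.

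Depth was 12664222 to 21698298 estimated counts per library. The atf-6 transcript had 10.8 to 13.2 CPM (counts relative to the size of the library after TMM scaling) in N2 and 14.1 to 16.03 CPM in atf-6. In edgeR's quasi-likelihood test its log2 fold change, always given here as atf-6 against N2, was 0.28 with an SE of 0.0911 (adjusted p = 0.346). Every atf-6 library was above every N2 library, so the level of the transcript does not check the strain label. Markers of adult hermaphrodites were present in every library. The 6 vitellogenin genes, which encode yolk proteins of the intestine, summed to 85412 to 108673 CPM in N2 and 84713 to 103452 CPM in atf-6. The cuticle collagen col-19 of the adult epidermis had 1383 to 2219 and 1558 to 2247 CPM.

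Most fbxa genes had low levels in these adults. Of the 170, 20 had 0 counts in all 8 libraries, 45 had 1 to 9 counts in total and 105 (61.8%) had at least 10. Among all 19579 protein-coding genes, 77.98% had at least 10 counts. None of the 6 members on chromosome I was without a count, while 4 of 14 on chromosome II, 5 of 60 on III, 1 of 5 on IV, 8 of 71 on V and 2 of 14 on X were. A count of 0 over the 142058602 counts of all libraries allows a level of up to 0.0211 CPM (3 counts), and the limit for a single library was 0.138 to 0.237 CPM. These limits use library totals without TMM scaling and cover counting error only. The number of members above 0 was 113, 121, 109 and 117 in the 4 N2 libraries and 114, 111, 127 and 117 in the 4 atf-6 libraries, in replicate order, and the groups overlapped.

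The median member had 0.223 TPM (abundance scaled for transcript length and depth), against 1.46 TPM for the median protein-coding gene. A mean of at least 1 TPM was reached by 39 members, of at least 5 TPM by 10 and of at least 10 TPM by 6. The share at or above 1 TPM was 22.9% for fbxa, 9.62% for the 104 fbxb genes, 32.6% for the 43 fbxc genes and 53.6% for protein-coding genes. fbxb and fbxc are the sister families of nematode F-box genes. In them 2 fbxb genes and 0 fbxc genes were at 0 in every library, against 20 fbxa genes (11.8%). Among all protein-coding genes this share was 8.57%. The share of fbxa members that passed the filter on low counts (edgeR's filterByExpr) was 34.7%, or 59 genes, against 36.5% of fbxb, 53.5% of fbxc and 60.1% of protein-coding genes. The other members, 111 in number, are described here only by detection and position.

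**Figure D1:**
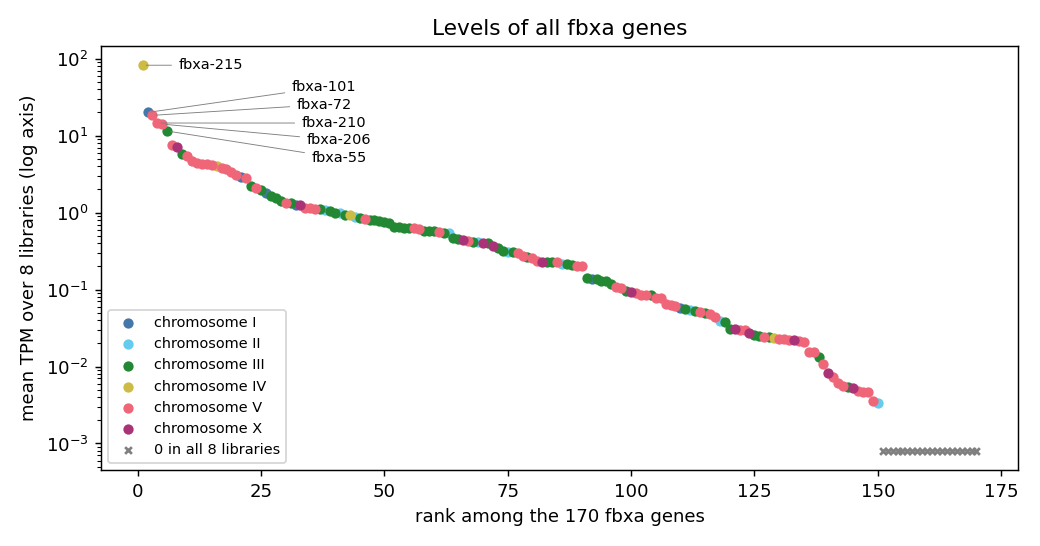
Mean TPM over 8 libraries (log axis) of each of the 170 fbxa genes, ranked from the highest and coloured by chromosome. fbxa-215 stands alone at 82.1 TPM, 39 genes lie at or above 1 TPM, and crosses mark the 20 genes with 0 counts in every library.

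A single gene, fbxa-215, gave 35.9% of the family's CPM. fbxa-215 (WBGene00012879, chromosome IV, 13665364 to 13666909, minus strand, build WBcel235, as all positions here) had 172, 147, 109.98 and 150.1 CPM in the 4 N2 libraries and 118, 132, 180.1 and 169 CPM in the 4 atf-6 libraries, in replicate order. N2 replicate 3 and atf-6 replicate 1 were the lowest, atf-6 replicate 3 the highest, and the groups overlapped. Its mean TPM of 82.1 ranked 1165 among all genes in the table. The 5 largest contributors together gave 60.9% of the family's CPM.

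fbxa-101 (WBGene00008569, chromosome I, 12958640 to 12959932, minus strand) was second at 20.0 TPM. It had 32.8, 30.5, 22.6 and 32.9 CPM in N2 and 26.2, 28.5, 36.6 and 34.6 CPM in atf-6. fbxa-72 (WBGene00017962, chromosome V, 674886 to 676753, minus strand) averaged 18.3 TPM. Like fbxa-215, it was highest in atf-6 replicate 3, with 26.8, 21.0, 17.4 and 19.5 CPM in N2 and 15.9, 17.2, 30.5 and 22.4 CPM in atf-6. fbxa-210 (WBGene00012565, chromosome V, 18125375 to 18127205, plus strand) averaged 14.6 TPM, and its highest and lowest values lay in the same libraries as those of fbxa-215. Its values were 32.5, 28.4, 16.8 and 26.3 CPM in N2 and 18.2, 25.6, 39.3 and 34.2 CPM in atf-6. fbxa-206 (WBGene00013610, chromosome V, 16917201 to 16918478, minus strand) averaged 14.1 TPM and spread least, with 25.2, 23.9, 20.7 and 23.1 CPM against 21.2, 22.4, 24.2 and 25.6 CPM. In all 5 genes the N2 and atf-6 values overlapped. In TPM, fbxa-101, fbxa-72, fbxa-210 and fbxa-206 lay close together, and neighbours in this order differed by less than the SD over libraries. That SD includes movement that these genes share, and their order was not compared library by library. fbxa-215 lay above them in every library.

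The sixth in rank, fbxa-55 on chromosome III, had a mean of 33.5 counts. Its 11.5 TPM rested on a 248-base transcript with an effective length of 19 bases, which gave 9.43 TPM, while its 1075-base transcript gave 2.03 TPM. The remaining genes of the 10 highest were fbxa-114, fbxa-170, fbxa-60 and fbxa-211, with means of 7.45, 7.09, 5.69 and 5.39 TPM. Next in rank, and given for that rank after the values were seen, fbxa-95, fbxa-108, fbxa-107, fbxa-106, fbxa-192 and fbxa-83 had means of 4.71, 4.47, 4.31, 4.23, 4.14 and 4.03 TPM. Of the 10 highest, fbxa-170 spread least in atf-6, with 15.1 ± 0.382 CPM (SD, n = 4), against 16.5 ± 1.91 CPM in N2.

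The members known from the intracellular pathogen response were at or near 0. fbxa-158 (WBGene00015602, chromosome II) had 0 counts in all 8 libraries, and fbxa-75 (WBGene00022476, chromosome III) had 1 count, in atf-6 replicate 2. Of their ligase partners, the Skp1-related gene skr-5 had 4 counts in total, while skr-3, skr-4 and the RING protein gene rcs-1 averaged 15.7, 9.19 and 3.15 TPM. The cullin gene cul-6 had 1.75 ± 0.349 CPM in N2 and 1.97 ± 0.489 CPM in atf-6 (SD, n = 4). Its log2 fold change of 0.19 (SE 0.226) turned slightly negative without atf-6 replicate 3. Of 51 genes listed for that response, 16 could be tested, and 0 passed edgeR's test.

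Summed over all 170 members, the family had 458, 401, 330 and 411 CPM in the 4 N2 libraries and 347, 380, 504 and 453 CPM in the 4 atf-6 libraries, in replicate order. The lowest and the highest library differed 1.53-fold, and the groups overlapped. Means were 400 ± 52.9 CPM in N2 and 421 ± 71.0 CPM in atf-6 (SD, n = 4 each), a difference of 21.4 CPM that is smaller than either SD. Without fbxa-215 the sums were 255.0 ± 27.3 and 271 ± 42.1 CPM.

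Between the strains, 0 of 59 tested members had an adjusted p under 0.05 in edgeR's quasi-likelihood test. Over all 12375 tested genes this share was 0.816%, or 0.711% higher and 0.105% lower in atf-6. That share was 0.842% without N2 replicate 3, but it fell to between 0.127% (without N2 replicate 4) and 0.329% (without atf-6 replicate 3) when any of the other libraries was left out. Without adjustment, 2 members had a p under 0.05, as did 866 of all tested genes (7.0%). DESeq2 called 1 of 86 members, fbxa-192, against 1.24% of all genes with an adjusted p from that tool. The log2 fold changes of the 59 ran from -0.44 to 0.70, and 54 lay within 0.5 of 0. Their median SE was 0.245, with a range from 0.0894 for fbxa-206 to 0.796 for fbxa-157. The median biological coefficient of variation was 0.163 for the members and 0.110 for all tested genes. The members were also more thinly counted, with a median of 28.75 counts per library against 288.

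By sign, 42 of the 59 log2 fold changes were positive (71.2%, against 50.7% of all tested genes), with a median of 0.13 against 0.00191. This rested on few libraries. Without atf-6 replicate 3, 29 of 60 were positive with a median of -0.00334, and without both N2 replicate 3 and atf-6 replicate 3, a choice made after seeing the data, 26 of 60 were positive with a median of -0.05. Among the 21 members with a mean of at least 50 counts, 15 were positive and the median was 0.05.

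The 5 most abundant members had log2 fold changes close to 0. These were 0.05 (SE 0.154) for fbxa-215, 0.09 (SE 0.139) for fbxa-101, 0.03 (SE 0.201) for fbxa-72, 0.18 (SE 0.239) for fbxa-210 and 0.01 (SE 0.0894) for fbxa-206. None passed edgeR's test, where the adjusted p was 0.933 to 0.989. The sign of each turned in at least 1 of the fits that left out libraries. For fbxa-206, the most precisely measured, the SE is small against a change of 1 log2 unit.

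**Figure D2:**
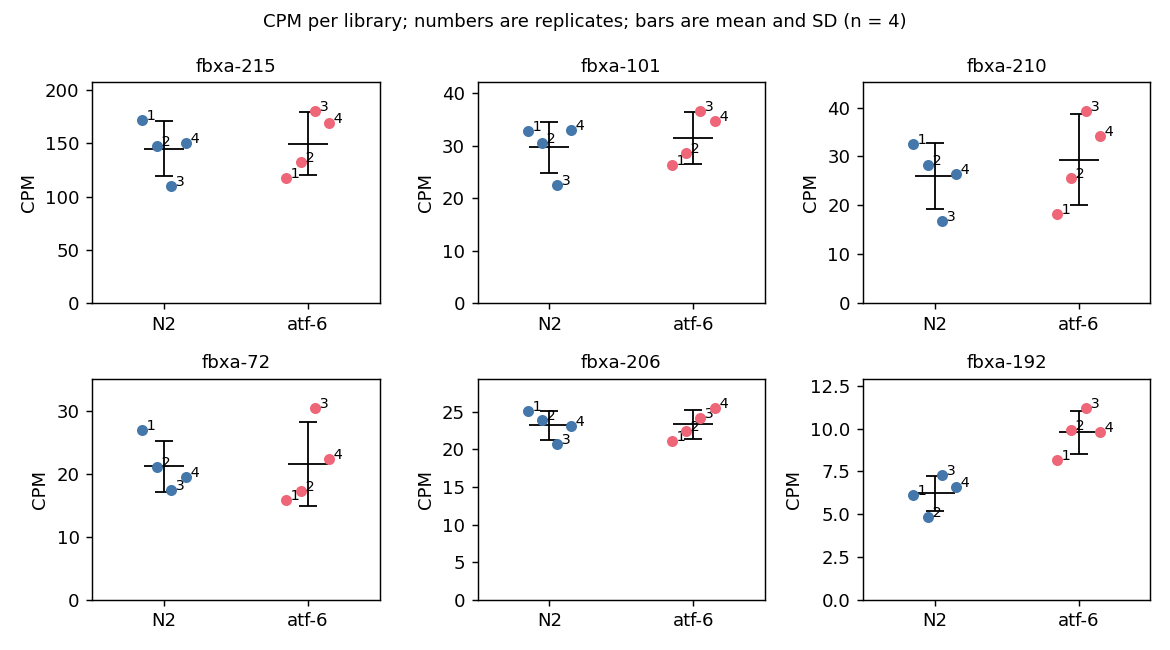
CPM of the 5 most abundant fbxa genes and of fbxa-192 in each library (numbered points are replicates, bars are means and SDs of 4 libraries, each panel with its own axis from 0). N2 and atf-6 points overlap in every panel but that of fbxa-192, where the highest N2 library has 7.26 CPM and the lowest atf-6 library 8.16 CPM.

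fbxa-192 was the member that came nearest to a strain difference. It lies on chromosome V (WBGene00010212, 17640672 to 17650527, minus strand), and no specific role is given to it here. It had 6.14, 4.84, 7.26 and 6.58 CPM in the 4 N2 libraries and 8.16, 9.90, 11.2 and 9.81 CPM in the 4 atf-6 libraries, in replicate order. Every atf-6 library was above every N2 library, and fbxa-192 was the only one of the 59 tested members with groups that did not overlap. Over all tested genes 5.80% had such groups, 3.77% with atf-6 higher. Mean CPM was 6.21 ± 1.02 in N2 and 9.77 ± 1.25 in atf-6 (SD, n = 4 each). With a log2 fold change of 0.66 and an SE of 0.144, the gene missed the threshold of edgeR's quasi-likelihood test (adjusted p = 0.0779). It passed with DESeq2 (adjusted p = 0.0126), in edgeR with all counted genes kept (adjusted p = 0.0375) and in edgeR without N2 replicate 3 (adjusted p = 0.0492). Over the 8 fits that left out 1 library, edgeR's adjusted p ran from 0.0492 to 0.225 and the log2 fold change from 0.56 to 0.75. It was 0.67 (edgeR adjusted p = 0.0802) without N2 replicate 3 and atf-6 replicate 3.

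The libraries also differed by strain in transcripts of the major sperm proteins, the cytoskeletal proteins of nematode sperm. Of 31 such genes, none was at 0, 28 could be tested, and 13 were higher in atf-6 by edgeR's test. All 28 had a positive log2 fold change in each fit without 1 library, while the number called was 18 without N2 replicate 3 and between 0 (without replicate 4 of either strain) and 4 (without atf-6 replicate 2) without any of the others. Their summed level was 100.3 to 176 CPM in N2 and 239 to 387 CPM in atf-6. Their part in the difference of fbxa-192 was not tested. Within 50 kb of fbxa-192, 7 other genes could be tested, with log2 fold changes from -0.05 to 0.92, and 0 passed. The largest of these, named after its value was seen, was the pseudogene F57G4.4, 0.63 kb away on the same strand, with means of 1.28 CPM in N2 and 2.34 CPM in atf-6. At a log2 fold change of 0.92 and an SE of 0.328 it was not called by edgeR (adjusted p = 0.449). The nearest member, fbxa-108 at 6.36 kb, had a log2 fold change of 0.13 (SE 0.155).

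The next smallest adjusted p after fbxa-192 belonged to fbxa-98 on chromosome IV, named after its value was seen (log2 fold change 0.68, SE 0.299, edgeR adjusted p = 0.685). It had 0.604 ± 0.196 CPM in N2 and 0.969 ± 0.255 CPM in atf-6 (SD, n = 4 each), and the groups overlapped. The largest log2 fold change of any tested member, 0.70 (SE 0.402) in fbxa-51 on chromosome III, also rested on few counts and did not pass (edgeR adjusted p = 0.852). This gene, too, was named after its value was seen.

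The genes of the SCF core were abundant, namely the scaffold cul-1 and the adaptors skr-1 and skr-2. cul-1 had 178 ± 8.16 CPM in N2 and 165 ± 11.5 CPM in atf-6 (SD, n = 4 each), a log2 fold change of -0.11 (SE 0.0649). The log2 fold change was -0.06 (SE 0.0914) for skr-1 and -0.08 (SE 0.0814) for skr-2, and both turned slightly positive without N2 replicate 3 and atf-6 replicate 3. None passed edgeR's test (adjusted p of 0.857, 0.933 and 0.923). Of 19 tested genes of the SCF core and of neddylation, the modification that activates cullins, 0 passed. Their summed level was 2767 to 2821 CPM in N2 and 2659 to 2733 CPM in atf-6, without overlap, and this sum was not tested. Of their log2 fold changes, 6 of 19 were positive. A count of 0 passing genes also held for 18 tested Skp1-related genes and for 41 tested MATH and BTB genes. The latter include substrate adaptors of CUL-3 ligases. In the sister families 0 of 38 tested fbxb and 0 of 23 tested fbxc genes passed, with median log2 fold changes of 0.32 and 0.11. Without adjustment, 5 fbxb and 5 fbxc genes had a p under 0.05 in edgeR's test, as did 7.0% of all tested genes. Groups did not overlap for 2 fbxb genes, higher in atf-6, and for 4 higher and 1 lower fbxc genes. Over all tested genes that share was 5.80%. fog-2, which gave the FTH domain its name, had 23.4 ± 4.28 CPM in N2 and 24.6 ± 5.43 CPM in atf-6 (SD, n = 4 each). Its log2 fold change was 0.08 (SE 0.169) and that of its partner gld-1 -0.08 (SE 0.0800), and edgeR called neither.

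Members of the family lie on all 6 chromosomes, and most are on chromosomes III and V. Chromosome III holds 60 members and chromosome V 71, while chromosomes I, II, IV and X hold 6, 14, 5 and 14. On chromosome III, 55 of the 60 end before position 2400000, near the left end. On chromosome V, 59 of the 71 start beyond position 15000000, on the right arm. When neighbouring members at most 20 kb apart were joined, 118 of 170 (69.4%) fell into 24 clusters. The share was 73.1% for fbxb and 69.8% for fbxc under the same rule. Of the 170, 97 had another member as the next protein-coding gene.

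**Figure D3:**
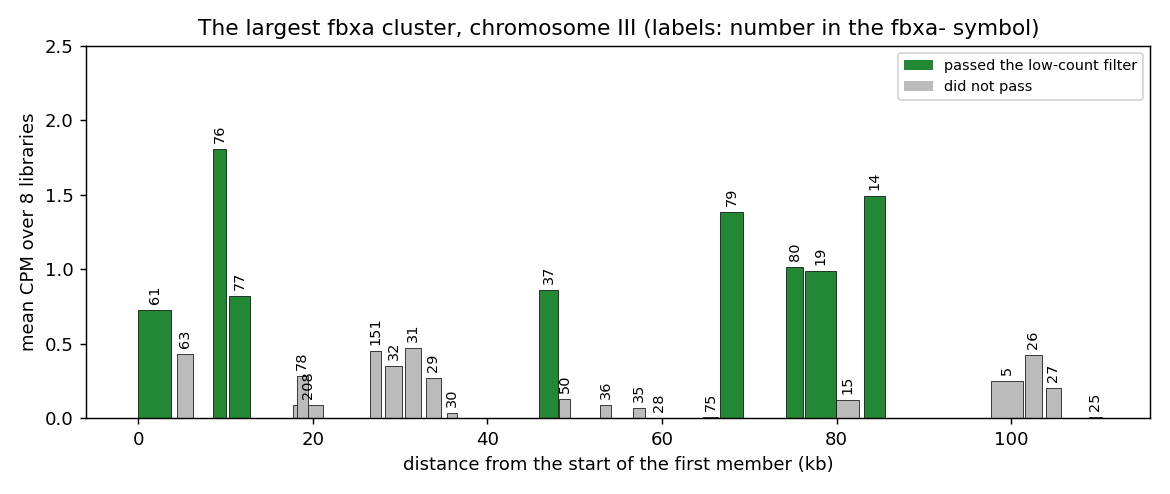
Mean CPM over 8 libraries (bar height) of the 26 fbxa genes of the largest cluster, placed by distance in kb from the start of the first gene, with bar width equal to gene length. Green bars are the 8 genes that passed the filter on low counts, all below 2 CPM, and grey bars are those that did not pass.

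The largest cluster spans 110.4 kb of chromosome III (1239048 to 1349450) and holds 26 members, 10 on the plus and 16 on the minus strand. Of these, 22 had at least 10 counts in total, 8 passed the filter and 1 was at 0 in every library. The 8 were fbxa-61, fbxa-76, fbxa-77, fbxa-37, fbxa-79, fbxa-80, fbxa-19 and fbxa-14. fbxa-76 had the highest TPM of the cluster, 1.57. Its CPM was 1.82, 1.69, 2.1 and 1.38 in N2 and 2.28, 1.81, 1.58 and 1.81 in atf-6. fbxa-14 and fbxa-79 came next, with 1.46 ± 0.340 and 1.41 ± 0.195 CPM in N2 and 1.52 ± 0.347 and 1.36 ± 0.183 CPM in atf-6 (SD, n = 4 each). The other 5 had means from 0.687 to 1.045 CPM in N2 and from 0.769 to 1.02 CPM in atf-6, and the groups of all 8 overlapped. Their log2 fold changes ran from -0.17 to 0.44, and none passed edgeR's test. fbxa-75 lies in the same cluster, where its total was 1 count. The second cluster, 94.3 kb of chromosome III (2219708 to 2314035), holds 15 members, of which 2 passed the filter. The third, 30.4 kb (933422 to 963833), holds 10, of which 5 passed, fbxa-55 among them. A cluster of 6 members on chromosome II (1609252 to 1624672), with fbxa-158, had 4 at 0 in every library and none that passed.

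By position, of the clustered members 31.4% passed the filter (37 of 118), against 42.3% of those outside (22 of 52). The median TPM of the 2 sets was 0.212 and 0.229. The share that passed was 33.3% on III and 33.8% on V. fbxa-215, the most abundant member, lies outside every cluster, while fbxa-101 and fbxa-210 lie in small ones of 2 and 3 members.

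The cluster with fbxa-210 spans 4.95 kb of chromosome V (18123939 to 18128888). Its members fbxa-107, fbxa-210 and fbxa-211 all lie on the plus strand and all passed the filter, with means of 4.31, 14.6 and 5.39 TPM. fbxa-107 and fbxa-210 are 0.14 kb apart and fbxa-210 and fbxa-211 0.314 kb apart. Over the 8 libraries, as deviations from the group means, log2 CPM correlated at r = 0.839 and 0.830 for these neighbours and at r = 0.715 for fbxa-107 with fbxa-211.

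For a pair of neighbours the deposited counts fell wholly on one gene or the other in each library. fbxa-78 and fbxa-151, named after their values were seen, lie in the largest cluster 7.165 kb apart on the minus strand and span 1277 bases each. fbxa-78 had 0, 20, 0 and 0 counts in the 4 N2 libraries and 0, 0, 28 and 0 in the 4 atf-6 libraries, in replicate order, while fbxa-151 had 6, 0, 5 and 20 and then 2, 10, 0 and 22. In every library just 1 of the 2 genes had counts. Their sum was 6, 20, 5 and 20 in N2 and 2, 10, 28 and 22 in atf-6, without a library at 0. The counts are a quantifier's estimates. Whether the 2 genes share reads was not tested, and the level of either gene alone is uncertain. fbxa-157 on chromosome V, also named after its values were seen, had 13, 0, 26 and 23 counts in N2 and 0, 10, 16 and 21 in atf-6. Both a library at 0 and one with at least 15 counts were seen in these 3 of the 170 members and in 80 of all 19579 protein-coding genes. The 2 identifiers named fbxa-41 lie on chromosome X and span 1568 bases each. By position, 24 members overlap another protein-coding gene and 16 of them another member. fbxa-208, for example, overlaps the whole of fbxa-78 on the opposite strand. Only 2 of the 24 were among the tested members.

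**Figure D4:**
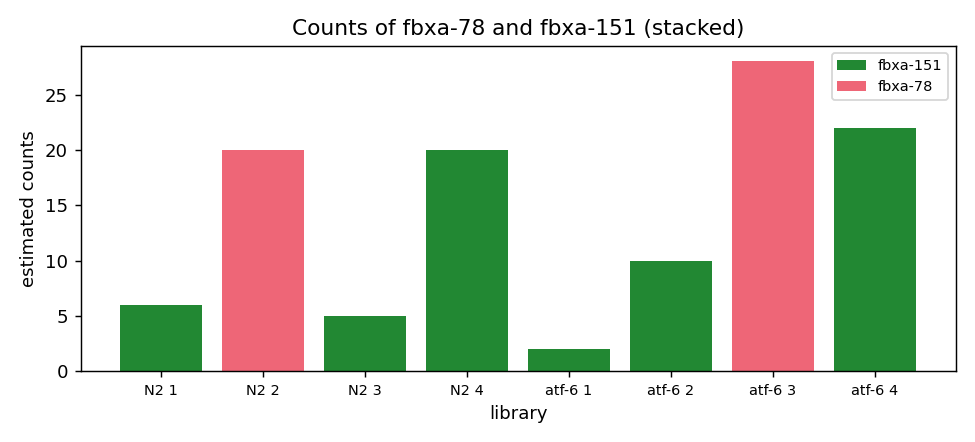
Estimated counts of fbxa-78 and fbxa-151 in each of the 8 libraries, stacked. Each bar has 1 colour: N2 replicate 2 and atf-6 replicate 3 hold 20 and 28 counts of fbxa-78 and 0 of fbxa-151, and the other 6 libraries hold 2 to 22 counts of fbxa-151 and 0 of fbxa-78.

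The genes that rose most in atf-6 lie on the right arm of chromosome V, where 59 fbxa members start beyond position 15000000. Y102A5C.36 and the pseudogenes Y102A5C.5 and Y102A5C.6, which occupy 16926922 to 16930063 on chromosome V, passed edgeR's test with log2 fold changes of 2.97, 2.79 and 2.61. Pseudogenes that are not fbxa genes lie closer to them than any member, such as Y102A5C.35 at 0.797 kb and Y102A5C.7 at 1.94 kb. How many members lie near other genes of this arm was not counted. Within 50 kb of Y102A5C.36, Y102A5C.5 and Y102A5C.6 lie 7 fbxa members. The 2 that could be tested, fbxa-206 at 8.44 kb and fbxa-90 at 36.8 kb, did not pass edgeR's test, with log2 fold changes of 0.01 (SE 0.0894) for the first and 0.27 (SE 0.205) for the second. Of the rest, fbxa-45 and fbxa-148 were at 0 in every library, and fbxa-44, fbxa-111 and fbxa-112 had 12, 1 and 2 counts in total.

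Within each strain, the well counted members tended to be high in the same libraries. Correlations are given as a description, over the deviations of log2 CPM from the group means in 8 libraries, where all genes of a library share its depth and composition. The median r over the 1711 pairs of tested members was 0.223 (interquartile range -0.109 to 0.526). Over all pairs of tested genes it was -0.000553 (interquartile range -0.450 to 0.450). An r above 0.7 was found for 12.6% of the members' pairs and 11.8% of all pairs. An r above 0 was found for 67.7% and 49.97%. The median r was 0.253 for fbxb (703 pairs) and 0.111 for fbxc (253 pairs). Among the 21 members with a mean of at least 50 counts the median r was 0.545. The 3 highest pairs joined genes on different chromosomes, namely fbxa-215 with fbxa-210 (r = 0.983), fbxa-145 with fbxa-107 (r = 0.981) and fbxa-167 with fbxa-37 (r = 0.981). By position, the median r was 0.0930 for the 49 pairs within a cluster, 0.259 for the 438 other pairs on 1 chromosome and 0.209 for the 1224 pairs on different chromosomes. Of the 49, 28 join the 8 thinly counted genes of the largest cluster. Where both genes had a mean of at least 50 counts, the order was another. The median r was 0.789 for 6 pairs within a cluster, 0.598 for others on 1 chromosome and 0.416 for pairs on different chromosomes. The 6 include the 3 pairs among the neighbours fbxa-107, fbxa-210 and fbxa-211, and fbxa-192 with fbxa-108 at r = -0.0124.

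The movement followed the main difference between libraries of a strain. The first principal component of the deviations of all 12375 tested genes, to which the 59 members belong, held 42.4% of their variance. On this axis N2 replicates 1 to 4 scored 0.452, 0.0308, -0.525 and 0.0422, and atf-6 replicates 1 to 4 scored -0.467, -0.218, 0.434 and 0.252. Ordered by the family's summed CPM, the libraries stood in the same order but for the top pair, N2 replicate 1 and atf-6 replicate 3, which changed places. Of the 59 tested members, 44, 29, 22 and 35 lay above their N2 mean in N2 replicates 1 to 4, and 15, 21, 50 and 37 above their atf-6 mean in atf-6 replicates 1 to 4. As deviations, log2 of the sum correlated with the score at r = 0.992. The sum is weighted to abundant genes, with 35.9% of it from fbxa-215. The median r of the 59 tested members with the score was 0.512.

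Of the 59 members, 49 (83.1%) had a positive r with the axis, against 50.5% of all tested genes. An r above 0.7 was found for 19 members (32.2%) and 24.3% of all tested genes, and an r below -0.7 for 0 members and 24.8% of all tested genes. Among genes with a mean of at least 50 counts, 20 of 21 members (95.2%) were positive, against 48.0% of the 9347 other genes, and 13 (61.9%) were above 0.7, against 26.97%. Below that count 29 of 38 members were positive (76.3%, against 57.8%). r was 0.995 for fbxa-215, 0.976 for fbxa-210, 0.945 for fbxa-101, 0.936 for fbxa-206 and 0.928 for fbxa-72. The exception among the better counted members, named after its value was seen, was fbxa-74 on chromosome III (r = -0.497). fbxa-192 did not follow the axis (r = 0.138).

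**Figure D5:**
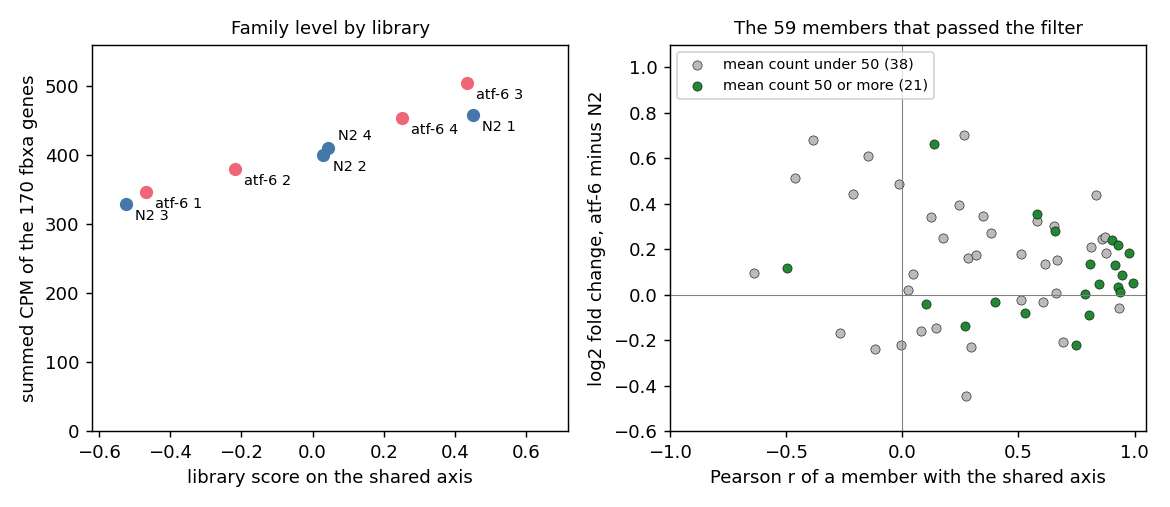
Left, summed CPM of the 170 fbxa genes in each library against the library's score on the first principal component of the deviations of all tested genes from their group means, with N2 in blue and atf-6 in red. The sum climbs from 330 CPM in N2 replicate 3 to 458 CPM in N2 replicate 1 and 504 CPM in atf-6 replicate 3. Right, log2 fold change of the 59 tested members against their r with that score, where 49 lie right of 0 and fbxa-192 (0.66) has an r of 0.138.

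Other gene groups moved along the same axis. The summed level of the vitellogenins correlated with the score at r = -0.945, that of 7 oocyte genes at -0.967, col-19 at -0.966 and the major sperm proteins at -0.6999. Across the whole range, the oocyte sum was 7139 to 8097 CPM in N2 and 6554 to 7669.5 CPM in atf-6. None of these 7 genes, of the 6 vitellogenins or of the 31 sperm genes was at 0. The 6 embryo genes summed to 10.9 to 12.4 CPM in N2 and 10.1 to 14.9 CPM in atf-6. That sum followed the score less closely, at r = -0.358, and 1 of 3 tested embryo genes had a positive r. The core SCF and neddylation list (r = -0.882) and the Skp1-related genes (r = -0.950) had summed levels that ran opposite to the fbxa sum. Their single genes were mixed, with a positive r in 9 of 19 (median -0.431) and in 7 of 18 tested genes (median -0.231). The summed levels of the MATH and BTB genes (r = 0.924), the F-box genes with other names (r = 0.956) and fbxb (r = 0.791) ran with it. In these, 37 of 41, 13 of 15 and 31 of 38 tested genes had a positive r. The sums of fbxc (r = 0.803, 15 of 23 positive) and of the intracellular pathogen response list (r = 0.830, 13 of 16) did so too. Single fbxc genes had a median r of 0.240, against 0.507 for fbxb. The part of stage, tissue share or RNA composition in the covariation of the fbxa genes was not tested.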

How the data were processed

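Poly(A) RNA libraries came from a stranded TruSeq kit and a NextSeq500 run, per the labels' protocols. Tools named in the submitters' processing notes, without role or order, are DESeq2 1.19.51, STAR 2.5.3a and Salmon 0.9.1, with the build WBcel235. The sources used here do not say whether quantification used strand. All tests used the gene table that the authors deposited, which holds estimated counts in whole numbers. The deposited file of each sample gives, per the file headers, estimated counts (reads), TPM and effective length of 58105 transcripts, and TPM was summed by gene. A normalized signal table that the authors also deposited, equal to the counts divided by 1 factor per library, was not used further. Table columns were tied to samples through the library number in each sample's own file.

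Testing was done in edgeR 4.0.16 (R 4.3.3) with filterByExpr, TMM and a robust quasi-likelihood fit of strain on all 8 libraries. F-tests were two-sided, with adjustment after Benjamini and Hochberg over 12375 genes. The SE is the absolute log2 fold change over the square root of F. Correlations used log2 CPM with a prior count of 2. Descriptive tables and figures were made in Python 3.11.15. Symbols came from a gene name table (43540 identifiers), otherwise from the Ensembl annotation of WBcel235, which also gave positions. Replicate numbers were not taken to pair the libraries. Members and lists were chosen with earlier results of these data known. No sequence of a member was used here.

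Genes were named by rule: members past the threshold, the 10 highest by TPM, the 5 largest rises and falls with groups that do not overlap, fbxa-75 and fbxa-158, tested members of the largest cluster, the 3 most correlated pairs, and cul-1, skr-1, skr-2, cul-6, fog-2 and gld-1. Members given for a lower rank or for their position, or said to be named after their values were seen, fall outside it. Alternatives were RLE and upper-quartile scaling, no filter, at least 10 counts in 4 libraries, DESeq2 1.42.0, limma-voom (limma 3.58.1), a replicate block, sums of transcript reads, a threshold of 0.01 and leaving out each library. A fit without replicate 3 of both strains was added after seeing the data.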

Additional observations from a re-analysis of the deposited data

How the results depend on the processing

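The count of members past the threshold was 0 of 59 in the main fit (range 0 to 1 over fits that left out libraries). It became 1, fbxa-192, with no filter (of 150 members), with DESeq2 (of 86) and without N2 replicate 3 (of 64). Over all tested genes, the shares called in these fits were 0.637%, 1.24% and 0.842%. The count of members stayed 0 under RLE or upper-quartile scaling, the other count filter, limma-voom, read sums, a threshold of 0.01 and the replicate block. Under the replicate block fbxa-192 had an edgeR adjusted p of 0.352. The replicate block left 4 genes called in the whole table and 0 of 28 sperm genes, of which read sums called 1 and DESeq2 26 of 31. Same-numbered libraries correlated at -0.385, -0.0446, -0.407 and 0.0430, so the numbers were not taken as pairs. Detected members were 105, or 59 when detection meant passing the filter. The median pairwise r of 0.223 was 0.545 at a mean of at least 50 counts and 0.119 to 0.292 with 1 library left out. The difference of the summed CPM ran from -6.33 to 46.02 with 1 library left out.

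Some log2 fold changes changed sign, among them those of fbxa-37 (0.44) and fbxa-167 (0.25), and the cause was not tested. With limma-voom fbxa-145 was 0.00895. With read sums fbxa-60 was 0.0315 and fbxa-79 0.0170. Upper-quartile scaling put fbxa-79 at 0.000963. DESeq2 put fbxa-80 at -0.00291 and fbxa-206 at -0.00944, and the replicate block put fbxa-72 at -0.00140. Over the 8 fits without 1 library and the fit without replicate 3 of both strains, ranges were -0.367 to 0.216 for fbxa-145, -0.0989 to 0.166 for fbxa-101, -0.0268 to 0.362 for fbxa-167, -0.0921 to 0.0171 for fbxa-60, -0.260 to 0.384 for fbxa-61, -0.0113 to 0.272 for fbxa-76 and -0.00990 to 0.615 for fbxa-37. They were -0.129 to 0.0542 for fbxa-79, -0.107 to 0.0862 for fbxa-80, -0.0408 to 0.238 for fbxa-14, -0.158 to 0.151 for fbxa-215, -0.261 to 0.159 for fbxa-72, -0.0542 to 0.0552 for fbxa-206, -0.142 to 0.350 for fbxa-210 and -0.0724 to 0.164 for fbxa-114. For cul-6, fog-2, skr-1 and skr-2 they were -0.0131 to 0.317, -0.146 to 0.179, -0.129 to 0.0409 and -0.131 to 0.00463.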
